A study of Mus musculus with 16 samples.

Results

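The genes described here are 9 genes of the Hedgehog signalling pathway, Shh, Ptch1, Hhip, Smo, Sufu, Gli1, Gli2, Gli3 and Mycn, in back skin and in sorted hair follicle stem cells (HFSC) of mice with and without the GRK2 eKO genotype. They were chosen by gene symbol, matched through the Ensembl identifiers, and not by their values. All 9 of 9 were found among the 55357 gene rows of the skin table and among the 56953 gene rows of the HFSC table. The choice rests on background knowledge: G-protein-coupled receptor kinase 2 (GRK2) is a kinase for which Smoothened, the signal-transducing protein of this pathway, is a known substrate. The comparison asks whether pathway components and target genes differ between genotypes in each tissue.

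The study compared control mice with GRK2 eKO mice on the C57BL/6 strain. The labels do not spell out eKO, and the promoter or recombinase behind the deletion and the part of the gene removed are not given in the sources used here. Skin was profiled in 5 control and 5 eKO libraries from whole back skin of animals aged 8 months. HFSC were profiled in 3 control and 3 eKO libraries of CD34+, α6-integrin+ bulge cells isolated by flow sorting; the sample labels give an age of 18 months and the series text gives 8 months, so the age of these animals is not settled. The labels give neither sex nor litter nor batch, and nothing in them says whether libraries of a group came from separate animals. The p-values therefore measure the spread between these libraries, which may be partly technical. Values are the authors' normalised read counts, that is, reads per gene divided by 1 size factor per library.

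Hedgehog signalling begins when a secreted ligand, of which Shh is the one made by hair follicle epithelium, binds the receptor Ptch1 and relieves its block on Smo. Active Smo, which acts at the primary cilium, frees the Gli transcription factors from the inhibitor Sufu, and Gli proteins then switch on target genes that include Gli1, Ptch1 and Hhip. In skin the pathway is known for driving the growth phase of the hair follicle, and its unchecked activation is known for causing basal cell carcinoma.

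In HFSC, Ptch1, Gli2 and Mycn fell together in eKO, as described below, and the 250 bases before their start sites are shown for that reason. The sequences are those of RefSeq for build GRCm38.p6, which is not the build named in the submitters' processing notes (GRCm39); each is written 5′ to 3′ on the strand of the gene. Capitals mark a match to the core of the Gli binding motif.
Ptch1, chr13:63565736-63565985 on the minus strand: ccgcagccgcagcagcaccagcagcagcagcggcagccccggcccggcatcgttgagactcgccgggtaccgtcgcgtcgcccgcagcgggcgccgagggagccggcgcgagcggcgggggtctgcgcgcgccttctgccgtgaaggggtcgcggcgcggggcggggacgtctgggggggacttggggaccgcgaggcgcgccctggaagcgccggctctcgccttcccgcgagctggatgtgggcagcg
Gli2, chr1:119053620-119053869 on the minus strand: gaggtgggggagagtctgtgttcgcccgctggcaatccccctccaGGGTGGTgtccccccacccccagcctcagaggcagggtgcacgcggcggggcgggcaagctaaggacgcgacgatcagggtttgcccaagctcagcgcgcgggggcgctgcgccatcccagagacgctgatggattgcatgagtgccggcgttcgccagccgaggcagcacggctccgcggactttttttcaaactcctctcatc
Mycn, chr12:12941837-12942086 on the minus strand: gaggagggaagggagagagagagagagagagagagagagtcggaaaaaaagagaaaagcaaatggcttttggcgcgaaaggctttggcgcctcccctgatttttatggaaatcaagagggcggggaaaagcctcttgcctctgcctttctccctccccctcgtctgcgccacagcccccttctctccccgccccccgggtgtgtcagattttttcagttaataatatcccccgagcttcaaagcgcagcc
The search used GACCACCCA, the Gli consensus, and its shorter core ACCACCC, which lies within it, each on both strands. Promoter windows were found for 7 of the 9 genes, Shh and Gli1 being the others. None of the 7 windows held the full consensus, which occurs in 0.225% of the 32851 RefSeq windows of 250 bases. Gli2 alone of the 7 held the core, as GGGTGGT beginning 205 bases before its start site, and the core occurs in 3.92% of all windows. A match is a description of these letters, and its absence says only that they are not in this window.

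The depth of a library, as recovered reads, lay between 8.21 M and 16.4 M for skin and between 6.43 M and 9.39 M for HFSC (M, mega). Grk2, the targeted gene, was at 1099.7 to 1492 in control skin and at 979.7 to 1224 in eKO skin (log2 fold change -0.22, SE 0.10, n = 5 per group, limma adjusted p = 0.343). In HFSC it was at 121 to 144 in controls and at 104 to 122 in eKO (log2 fold change -0.24, SE 0.23, n = 3 per group, limma adjusted p = 0.501). The groups overlapped in both tissues, and it is not known which of these reads lie in the deleted part, so the level of Grk2 is a weak check of the labels. The sort markers Cd34 and Itga6 were present in all 6 HFSC libraries, at 1157 to 1323 and at 2047 to 3290.4.

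In HFSC, the receptor Ptch1, the inhibitor Hhip, the transcription factor Gli2 and the Gli target Mycn fell in eKO, and no Hedgehog gene was called higher. These are 4 of the 8 genes tested, Shh being too low for the test. The background is high in this tissue: 19.4% of all 13784 genes tested passed the same threshold (limma, adjusted p under 0.05), 8.74% of them downward and 10.7% upward. The groups did not overlap for 5 of the 8, against 36.3% of all genes tested. The median log2 fold change was -0.67 over the 8 genes and -0.03 over all genes tested. In bulk samples, fewer cells of a type and less RNA per cell cannot be told apart, and this holds for every fold change below.

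**Figure D1:**
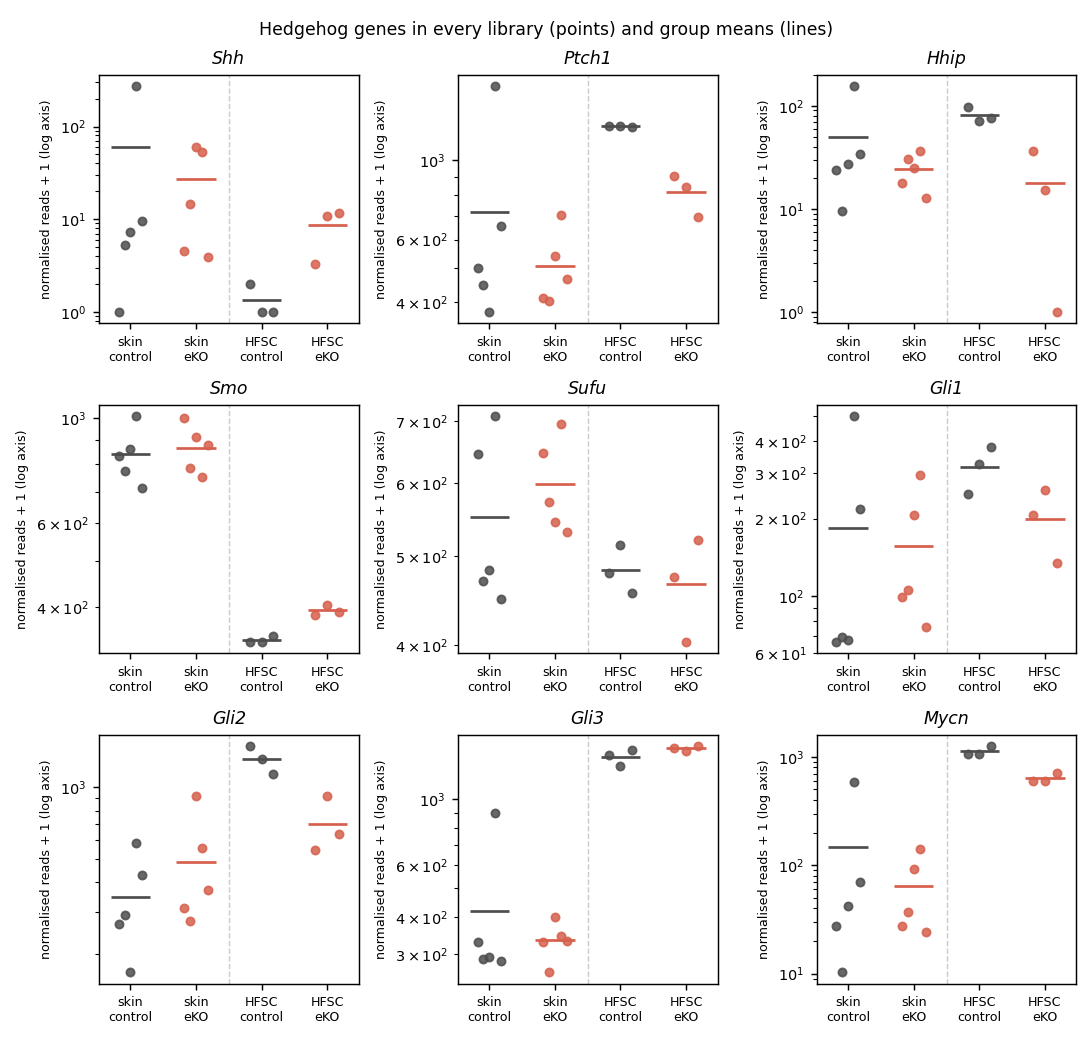
Normalised reads plus 1 of the 9 Hedgehog genes in every library (points, log axis, a separate scale for each gene), with the group mean as a line; skin and HFSC were normalised separately and their levels are not comparable across the dashed line. In HFSC the 3 eKO points of Ptch1, Gli2, Hhip and Mycn lie below the 3 control points, and in skin 1 control library, replicate 4, stands above all the others for Shh, Ptch1, Gli1, Gli3, Hhip and Mycn.

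Shh, the ligand, was at the edge of detection in HFSC. The 3 control libraries held 1, 0 and 0 reads and the 3 eKO libraries held 3, 9 and 10. Every control library was thus at or under the floor of 3 reads, the count that a library with none could still hide, and only 2 eKO libraries were above it. The gene failed the filter on low values, and when the filter was dropped it did not pass (limma adjusted p = 0.0588). Shh is best known as a product of the growing hair matrix, and the list of hair matrix and shaft genes summed to 611 to 722 in HFSC controls and to 2538 to 2865 in eKO. The part of such cells in the Shh reads was not tested.

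Ptch1, at once the receptor and a target that reports pathway output, was tightly grouped in controls, at 1249.6, 1248 and 1241. The eKO libraries held 902, 842 and 691. Every eKO library was below every control, and the log2 fold change was -0.63 (SE 0.12, 95% interval -0.89 to -0.37, n = 3 per group, limma adjusted p = 0.00298). Hhip, a decoy that binds the ligand at the cell surface and is itself induced by the pathway, was at 95.7, 69.4 and 75.0 in controls and at 35.6, 14.3 and 0 in eKO. The groups again did not overlap, and eKO replicate 3 had no read. The log2 fold change of Hhip was -3.29 (SE 0.99, 95% interval -5.42 to -1.15, n = 3 per group, limma adjusted p = 0.0338). That size depends on the library without reads, being -1.76 when eKO replicate 3 is left out (adjusted p = 0.0250), and on the pseudocount, being -2.42 with a pseudocount of 5 in place of 1. Hhip was called under 6 of 12 alternative settings: the call was lost with edgeR and TMM (-2.20, adjusted p = 0.0524), with DESeq2 (-2.26, adjusted p = 0.246), without the filter (adjusted p = 0.0637) and without control replicate 1, 2 or 3 (adjusted p = 0.118, 0.0970 and 0.0902), so its fall is less secure than that of Ptch1.

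Smo, the transducer named as a GRK2 substrate, was not lower. Its control libraries held 337, 338 and 347 and its eKO libraries 384, 404 and 391, so that all 3 eKO values lay above all 3 controls. The difference did not pass the test (log2 fold change 0.21, SE 0.14, 95% interval -0.10 to 0.51, n = 3 per group, limma adjusted p = 0.346). Sufu, the cytoplasmic inhibitor of the Gli proteins, was at 478, 513 and 455 in controls and at 473, 402 and 519 in eKO. Its groups overlapped and its log2 fold change was -0.06 (95% interval -0.37 to 0.26, adjusted p = 0.819). The mRNA says nothing of the phosphorylation of Smo or of where either protein sits.

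Of the 3 Gli genes, only Gli2 passed the test. Gli2, the main activator at the start of a response, was at 1489, 1311 and 1136 in controls and at 544, 923 and 634 in eKO. No eKO value reached the controls, and the log2 fold change was -0.93 (SE 0.18, 95% interval -1.31 to -0.55, n = 3 per group, limma adjusted p = 0.00252). Gli1, the target that amplifies the signal and is the usual readout of pathway activity, was at 247, 326 and 379 in controls and at 205, 257 and 133 in eKO. One eKO library, replicate 2, lay above the lowest control, and Gli1 did not pass (log2 fold change -0.71, SE 0.25, 95% interval -1.24 to -0.17, n = 3 per group, limma adjusted p = 0.0634). It stood close to the threshold: adjusted p was 0.0460 with edgeR scaled by library size only, 0.0467 with DESeq2 and 0.0258 without eKO replicate 2, and over 12 alternatives the log2 fold change ran from -0.92 to -0.45. Gli3, mainly a repressor, was at 1415, 1294 and 1465 in controls and at 1489, 1461 and 1512 in eKO. Its groups overlapped and its log2 fold change was 0.10 (95% interval -0.11 to 0.31, adjusted p = 0.526). Differences between the Gli genes in their response were not tested.

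Mycn, a growth-promoting transcription factor that Hedgehog signalling induces in several tissues, was at 1057, 1060.3 and 1251 in HFSC controls. The eKO libraries held 600.5, 599 and 713. The groups were well apart, and the log2 fold change was -0.82 (SE 0.13, 95% interval -1.09 to -0.55, n = 3 per group, limma adjusted p = 6.22e-04). Ptch1, Gli2 and Mycn were called under all 12 alternative settings, at log2 fold changes from -0.71 to -0.52, from -1.15 to -0.77 and from -0.90 to -0.74.

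Other genes of the pathway were taken from lists of 63 genes, of which 62 were in the tables and 46 were tested in HFSC. Of these, 6 were lower and 3 higher, and the median of their log2 fold changes was -0.19. That is 9 of 46 against the background of 19.4% given above, a share close to the background. The falls with the greatest size were those of Cdon and Scube2. Cdon, a co-receptor that helps Ptch1 bind the ligand, was at 733, 715 and 834 in controls and at 234, 239 and 149 in eKO. All 3 eKO libraries were far below the controls (log2 fold change -1.90, SE 0.19, n = 3 per group, limma adjusted p = 2.11e-05). Scube2, a secreted protein that helps release the lipid-bearing ligand, was at 225, 219.8 and 187 in controls and at 72.0, 50.4 and 60.7 in eKO. It fell in every eKO library as well (log2 fold change -1.78, SE 0.25, n = 3 per group, limma adjusted p = 3.23e-04).

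By role, 1 of the 4 other receptors and co-receptors tested was lower (Cdon), and 2 of the 3 ligand and ligand release genes were lower (Scube2 and Disp1). Of all genes tested in HFSC, 8.74% were lower and 10.7% higher. The roles hold few genes, and differences between them were not tested. Disp1, a transporter that exports the ligand, changed by -0.82 on the log2 scale (limma adjusted p = 0.0305). Among 17 genes of transduction, Btrc, part of the ligase that marks Gli proteins for processing, fell (-0.91, adjusted p = 0.00652). Gsk3b and Csnk1a1, kinases that phosphorylate Gli proteins, rose (0.57, adjusted p = 0.00114, and 0.28, adjusted p = 0.0279). Of 16 genes of the primary cilium, 1 was lower, Ift88, a subunit of the transport complex of the cilium (-0.78, adjusted p = 0.0213). Of 6 other reported targets, the cell cycle phosphatase gene Cdc25b was lower (-0.54, adjusted p = 0.0238) and 1 was higher by less than any gene named here (Ccnd2, a cyclin, 0.27, adjusted p = 0.0454). The calls of Disp1, Ift88, Cdc25b, Csnk1a1 and Ccnd2 were each lost in at least 2 of 12 alternative settings, whereas Cdon, Scube2, Btrc and Gsk3b were called in all 12.

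**Figure D2:**
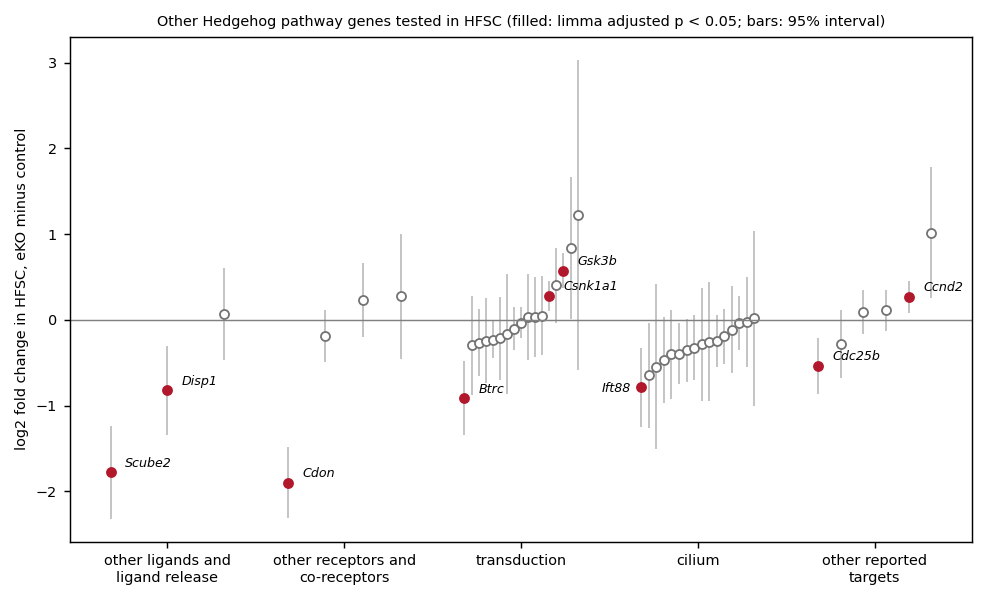
Log2 fold change in HFSC, eKO minus control (vertical axis), of the 46 other Hedgehog pathway genes tested, grouped by role (horizontal axis), with 95% intervals from limma as bars; filled points passed the test at an adjusted p under 0.05. Cdon (-1.90) and Scube2 (-1.78) lie lowest, and most genes of transduction and the cilium have open points.

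Markers of other cell types moved with the genotype in the same HFSC libraries. Beside the counts of this paragraph, 10.7% of all genes tested in HFSC were higher and 8.74% lower. The endothelial list summed to 56.0 to 71.5 in controls and to 1206 to 1370 in eKO, and 8 of 9 genes tested were higher. Vwf and Emcn were at 0 in every control and Cldn5 was at 0 in all 6 libraries. Genes at 0 in controls passed the filter on low values only through eKO, so the filter favours counts of higher genes. The sebaceous gland list summed to 2999 to 3122 in controls and to 12697 to 13375 in eKO, and 6 of 8 were higher. The leukocyte list summed to 363 to 423 in controls and to 1547 to 2409 in eKO (4 of 7 higher, 1 lower), and the list of differentiated epidermis to 3065 to 4882 in controls and to 17601 to 18489.9 in eKO (7 of 9 higher, 1 lower). For the dermal papilla, whose cells receive the Shh signal, the list summed to 1346 to 1428 in controls and to 3884 to 4455 in eKO. Wif1, Trps1 and Crabp1 rose and Rspo3 fell. Fgf7, Fgf10, Alx4 and Notum were at 0 in all 6 libraries, and Corin, Hey2, Prom1 and Sox18 were at 0 in every control. Fgf7 was at 0 in every skin library too, so its 0 in HFSC cannot speak to cell type. The dermal fibroblast list summed to 2188 to 2341 in controls and to 1824 to 2064 in eKO, with 1 of 6 genes higher and Dpt and Lum at 0 in all 6 libraries. The 4 nerve and glia, 3 melanocyte and 1 skeletal muscle genes tested did not pass in limma, the closest being Pmel (adjusted p = 0.0551). The list of bulge stem cell genes itself summed to 221135 to 226219 in controls and to 221676 to 255721 in eKO, with 3 of 16 genes higher and 2 lower. The Y-linked gene Ddx3y was at 1176 to 1216 in controls and at 359 to 434 in eKO, and all 4 Y-linked genes were lower. A difference in sex make-up, which the labels do not give, therefore cannot be told apart from genotype in HFSC. The part of the marker differences and of sex make-up in the falls of Ptch1, Hhip, Gli2 and Mycn was not tested.

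In whole skin, no difference of a Hedgehog gene between genotypes was shown. This does not show equal levels, as the intervals given below are wide for several genes. With limma, 0 of the 8 tested passed, against 0.374% of the 16589 genes tested (0.229% upward and 0.145% downward), and 0 of the 8 had an unadjusted p under 0.05; edgeR and DESeq2 also called 0. Shh failed the filter on low values here too. The median log2 fold change was -0.03 over the 8 genes, and the groups overlapped for all 8, whereas they did not overlap for 4.18% of all genes. The skin libraries spread widely within a genotype, and control replicate 4 held the highest value of the 10 for 8 of the 9 genes, Gli2 being the exception. In 2 skin libraries, control replicate 5 and eKO replicate 3, the Y-linked gene Ddx3y was at 0.950 and 0, against 1029.8 to 1304 in the other 8; without both, 0 of the 8 Hedgehog genes and 0 of all genes passed in limma, and 0 of the 8 and 1790 of all genes had an unadjusted p under 0.05. Of the cell type lists, sebaceous gland had 3 of 10 genes higher in eKO skin, and no gene of the others passed in limma.

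Shh was at 0, 4.22, 6.27, 274 and 8.55 in control replicates 1 to 5 of skin and at 3.56, 13.7, 59.7, 52.4 and 2.92 in the eKO replicates. Control replicate 4 was thus far above every other library, and 2 eKO libraries stood between it and the rest. Without the filter its difference did not pass (limma adjusted p = 0.877).

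Ptch1 was at 497, 447, 375, 1617 and 654 in control skin and at 411, 401, 537, 703 and 465 in eKO skin. Control replicate 4 was again highest and the other libraries of both groups were intermixed (log2 fold change -0.32, SE 0.35, 95% interval -1.09 to 0.45, n = 5 per group, limma adjusted p = 0.728). Hhip was at 22.7, 8.43, 26.1, 155 and 33.3 in controls and at 16.9, 29.4, 23.8, 35.6 and 11.7 in eKO. Its log2 fold change was -0.47 (SE 0.63, 95% interval -1.87 to 0.92, adjusted p = 0.784).

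Smo and Sufu varied least. Smo was at 832, 772, 860.5, 1007 and 711 in controls and at 996, 784, 909, 751 and 877 in eKO, a log2 fold change of 0.05 (95% interval -0.20 to 0.30, adjusted p = 0.882). Sufu was at 644, 469, 481, 708 and 449 in controls and at 645, 571, 543, 694 and 529 in eKO, a log2 fold change of 0.13 (95% interval -0.19 to 0.46, adjusted p = 0.728). For these components the intervals are narrow enough to exclude a 2-fold change in either direction.

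Gli1 was at 65.3, 68.3, 66.8, 499 and 218 in control skin and at 98.0, 105, 205, 294 and 74.6 in eKO skin. Control replicate 4 was again highest, 3 controls were the lowest of the 10, and the log2 fold change was 0.10 (SE 0.61, 95% interval -1.24 to 1.44, adjusted p = 0.958). Its sign was the same in 9 of 17 alternative settings, so no direction can be given. Gli2 was at 267, 289, 166, 583 and 427 in controls and at 311, 275, 923, 554 and 369 in eKO. Here the highest value was not in control replicate 4 but in eKO replicate 3, 1 of the libraries low in Ddx3y (log2 fold change 0.47, SE 0.39, 95% interval -0.39 to 1.32, adjusted p = 0.636). Without both of those libraries the log2 fold change of Gli2 was 0.30 (limma adjusted p = 0.798). Gli3 was at 328, 288, 292, 897 and 283 in controls and at 328, 259, 398, 345 and 332 in eKO, where all but control replicate 4 lay close together (log2 fold change -0.17, 95% interval -0.83 to 0.48, adjusted p = 0.832). Mycn was at 26.5, 9.27, 40.7, 582 and 69.4 in controls and at 26.7, 36.3, 90.5, 139 and 23.4 in eKO. The spread was the widest of the 8 genes tested (log2 fold change -0.11, SE 0.95, 95% interval -2.20 to 1.97, adjusted p = 0.971), so that even a 4-fold fall would lie within the interval.

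**Figure D3:**
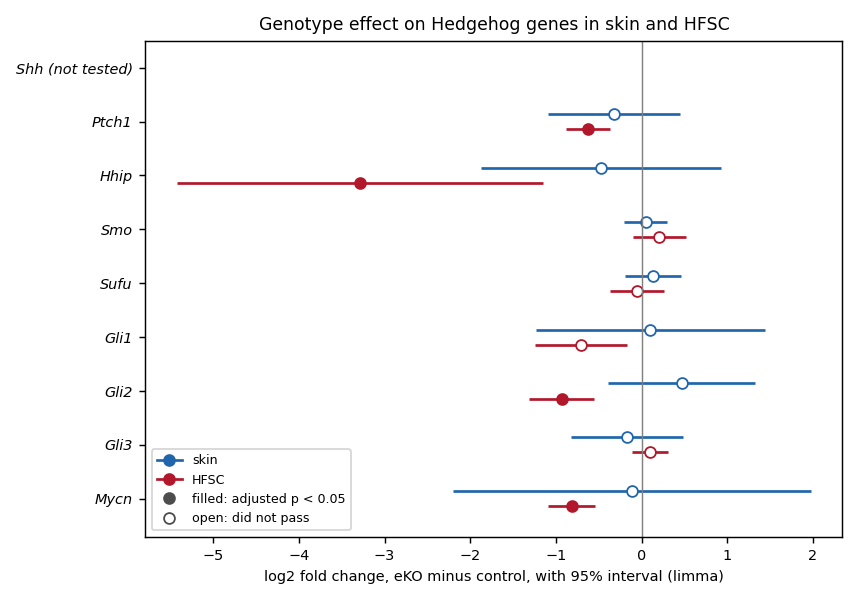
Log2 fold change, eKO minus control (horizontal axis), of each Hedgehog gene in skin (blue) and HFSC (red), with 95% intervals from limma as bars; filled points passed the test at an adjusted p under 0.05 and Shh was not tested in either tissue. Ptch1, Hhip, Gli2 and Mycn are filled in HFSC, no skin point is filled, and the skin intervals of Mycn and Gli1 are far wider than those of Smo and Sufu.

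Of the other pathway genes, 52 were tested in skin and 0 passed in limma, with a median log2 fold change of -0.09. At an unadjusted p under 0.05 there were 7 of 52, near the share of all genes (2348 of 16589), and edgeR called 0 and DESeq2 called 1, Gsk3b, at -0.25 (adjusted p = 0.00650).

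The difference between the genotype effects in HFSC and in skin was tested directly for the genes tested in both tables. No Hedgehog gene of the 8 passed in limma, against 5.62% of the 13227 genes tested (2.18% more negative in HFSC); 2 of the 8 had an unadjusted p under 0.05, near the share of all genes (2821 of 13227), and edgeR and DESeq2 also called 0. The difference of the log2 fold changes, HFSC minus skin, was -1.40 for Gli2 (SE 0.54, 95% interval -2.54 to -0.26, adjusted p = 0.144) and -2.81 for Hhip (SE 1.31, 95% interval -5.59 to -0.04, adjusted p = 0.227). It was -0.31 for Ptch1 (95% interval -1.31 to 0.69, adjusted p = 0.759) and -0.70 for Mycn (95% interval -3.35 to 1.95, adjusted p = 0.796). The falls seen in HFSC are therefore not shown to differ from what happened in skin. Among the other pathway genes 2 of 46 passed: Cdon (-1.59, SE 0.30, adjusted p = 0.00433) and Gsk3b (0.82, SE 0.13, adjusted p = 0.00108). In skin, Cdon was at 904, 652, 544, 481 and 863 in controls and at 603, 621, 520.1, 414 and 570.4 in eKO. Gsk3b there was at 2213, 2196, 2528, 2351 and 2289 in controls and at 2016, 1914, 1958, 1824 and 2042 in eKO, below every control, in the direction opposite to that in HFSC.

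As Shh is made by the growing follicle, the Hedgehog genes were set against the mean log2(value + 1) of hair matrix and shaft genes over the 10 skin libraries; 21 of the 22 listed genes were in the table and none is a Hedgehog gene. This mean was 2.08, 4.21, 7.50, 11.5 and 8.18 in the controls and 2.60, 7.08, 9.86, 8.89 and 3.03 in eKO, so both genotypes held libraries with little and with much hair keratin RNA, and control replicate 4 held the most. Shh followed the list closely (Pearson r = 0.915, permutation p = 7.00e-05, adjusted p = 0.0109; Spearman rho = 0.952, permutation p = 1.40e-04, adjusted p = 0.0217; n = 10 libraries). All p-values were adjusted over all 16590 genes with this test, of which 1.11% passed (0.934% with a positive r). Shh had failed the filter on low values and entered this test only as a listed gene. Its reads were 0, 5, 6, 293 and 9 in the controls and 4, 14, 93, 56 and 2 in eKO. Shh alone of the 9 Hedgehog genes passed. With the genotype means subtracted r was 0.934 (adjusted p = 0.0254). Without skin control replicate 1 and skin eKO replicate 1, whose list means lie farthest from the median, r was 0.894 but no longer passed (permutation, adjusted p = 0.195). The call was also lost when any of skin control replicates 1 and 4 and skin eKO replicates 1 and 5 was left out, with r of Shh from 0.887 to 0.941 over all 10 omissions.

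Of the others, Mycn (r = 0.839, rho = 0.879, adjusted permutation p = 0.0679 for r and 0.0857 for rho), Gli1 (r = 0.829, rho = 0.794, adjusted permutation p = 0.122 and 0.164) and Hhip (r = 0.754, rho = 0.745, adjusted permutation p = 0.122 and 0.211) had high coefficients that did not pass. Ptch1 (r = 0.647, rho = 0.576, adjusted permutation p = 0.223 and 0.389), Gli2 (r = 0.570, rho = 0.697, adjusted permutation p = 0.370 and 0.266) and Gli3 (r = 0.531, rho = 0.418, adjusted permutation p = 0.366 and 0.571) were lower. Sufu (r = 0.102, rho = 0.152) and Smo (r = 0.009, rho = 0.055) showed no relation at this number of libraries (adjusted permutation p from 0.880 to 0.994). Over all 10 libraries, Smo and Sufu thus had lower coefficients than the targets Mycn, Gli1, Hhip and Ptch1, and also lower than Gli2 and Gli3. This order was not stable. Without skin control replicate 1 and skin eKO replicate 1, r was 0.549 for Sufu, 0.335 for Smo, 0.535 for Gli2 and 0.629 for Gli3. The targets then had r from 0.679 (Ptch1) to 0.897 (Mycn). With 1 library left out, r of Gli3 went as low as 0.108. The rho of Gli2 was above that of the target Ptch1. These differences were not themselves tested. When the hair list was added to the skin comparison of genotypes as a covariate, 0 of the 8 Hedgehog genes tested passed, against 0.928% of all genes. The estimates were 0.52 for Gli2 (95% interval -0.17 to 1.21, limma adjusted p = 0.441), -0.27 for Ptch1 (95% interval -0.88 to 0.34, adjusted p = 0.657) and 0.05 for Mycn (95% interval -1.15 to 1.25, adjusted p = 0.973).

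**Figure D4:**
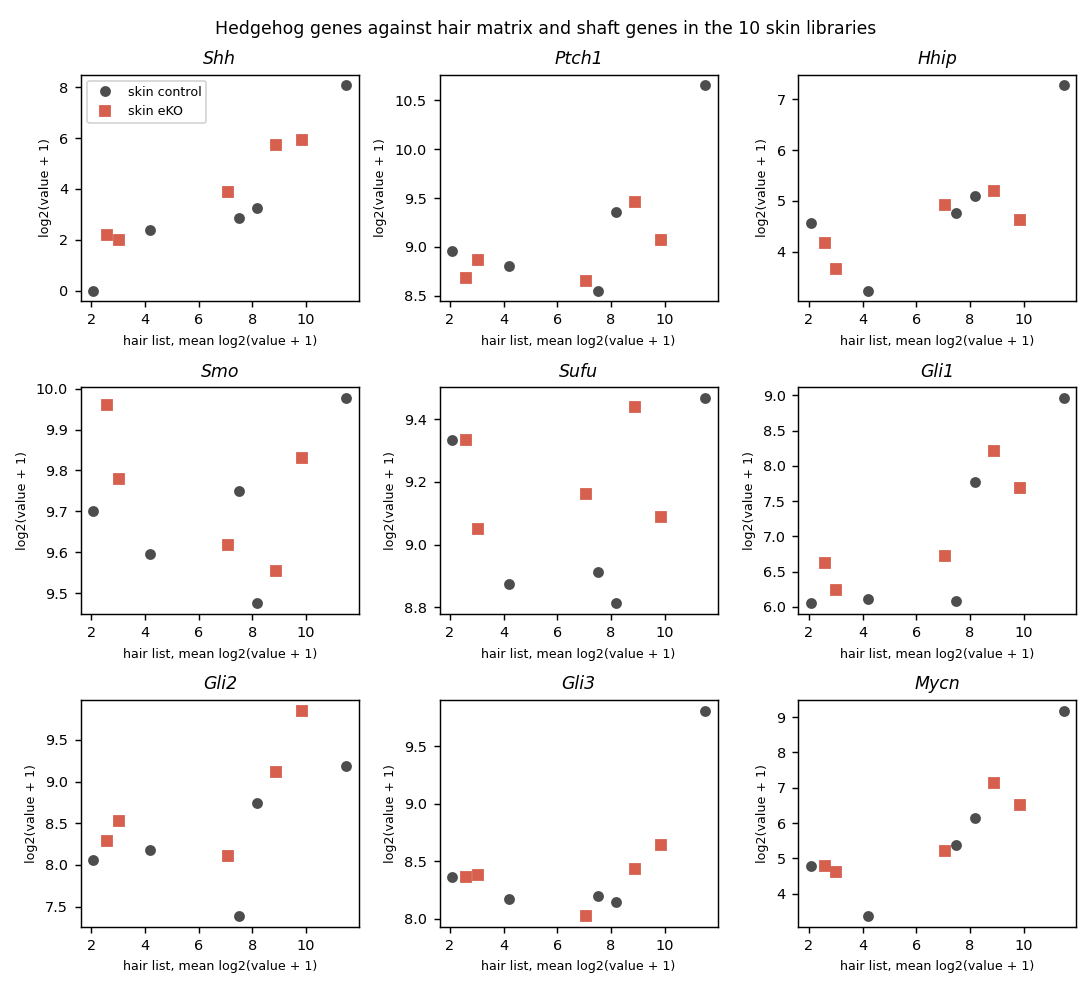
Each Hedgehog gene, as log2(value + 1) (vertical axis, a separate scale for each gene), against the mean log2(value + 1) of hair matrix and shaft genes (horizontal axis) in the 5 control (circles) and 5 eKO (squares) skin libraries. Shh rises along the whole range of the list (r = 0.915), Mycn, Gli1 and Hhip rise less evenly, and Smo and Sufu show no trend; control replicate 4 is the point at the far right.

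The skin genes with the pattern most like each receptor or activator were found by Pearson r over the 10 skin libraries after the genotype means were subtracted, a description that rests largely on the same few libraries. For Ptch1 they were Chaf1a, Ror2, Ndnf, Wif1 and Dna2, with r from 0.971 down to 0.962. For Gli1 they were Trps1, Dcaf4, Skiv2l, Clspn and Fras1, from 0.980 down to 0.954. For Gli2 they were Dio3os, Zfp532, Sox12, Pigo and 1190002N15Rik, from 0.989 down to 0.955. None of these 15 genes was shared between the 3 lists, and none was itself a Hedgehog gene.

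In RPM, reads scaled to the total of each library, which sets the tables side by side without making them comparable in preparation, the medians of Ptch1 were 41.8 in control skin, 38.7 in eKO skin, 184 in control HFSC and 119 in eKO HFSC. For Gli2 they were 24.2, 30.7, 194 and 90.4 in the same order, and for Mycn 3.35, 3.08, 158 and 84.9. Each of these genes thus had its highest median in control HFSC. The eKO HFSC libraries of Ptch1 were at 98.6 to 127 RPM, and of the skin libraries only control replicate 4, at 149, lay above them. The other control skin libraries were at 30.8 to 58.8 and the eKO skin libraries at 34.1 to 61.6. Hhip had medians of 2.15, 2.26, 11.1 and 2.02, so that its median in eKO HFSC was near those of skin, and Gli1 had medians of 5.72, 8.91, 48.2 and 28.8. Gli3 had medians of 25.5, 29.0, 211 and 209, and Sufu of 40.3, 51.6, 71.3 and 66.5. Smo had higher medians in skin, 69.9 and 73.0, than in HFSC, 50.3 and 55.7, and Shh had medians of 0.515 and 1.17 in skin and of 0 and 1.40 in HFSC. Tissue and preparation cannot be told apart in these values, and no test was made across the tables.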

How the data were processed

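Bulk RNA sequencing of 10 skin and 6 HFSC libraries was used, with groups taken from the genotype labels. Per the submitters' processing notes, skin reads were counted with featureCounts and DESeq2 was used, and the build was GRCm39 in both tissues; the aligner and the use of strand or of reads with several positions are not given in the sources used here. For each tissue the authors deposited a single table, whose values are a signal, gene read counts divided by 1 size factor per library. Dividing by the smallest step gave whole reads for 100% of nonzero values (tolerance 0.01) in all 16 libraries. Identifiers were matched to GENCODE M21 names (94.1% of skin rows and 91.4% of HFSC rows). Total recovered reads set the depth; read floors cover counting error only.

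Genotypes were compared with limma (version 3.58.1, R 4.3.3; trended prior) on log2(value + 1), on which the fold change of a low gene depends on the pseudocount, for genes that reached a value of 10 in 5 skin or 3 HFSC libraries, with Benjamini-Hochberg adjustment over all genes tested and a threshold of 0.05. The difference between tissues was a contrast in 1 fit of 4 group means. The edgeR (4.0.16) quasi-likelihood test and DESeq2 (1.42.0) were run on recovered reads as alternatives, beside another pseudocount (5), no filter, other scaling, a replicate block, a hair list covariate, and omission of each library or of both skin libraries with Ddx3y under 10. Relations with the hair list used 100000 two-sided permutations, adjusted over all genes rather than over the listed genes, as first planned. On simulated data, 2-fold and 4-fold changes were recovered in 37% and 84% of changed genes in skin and in 45% and 80% in HFSC. In each tissue 100 genes were changed at each size, among 16589 genes in skin and 13784 in HFSC. There were 9 and 12 false calls. In the real HFSC data 19.4% of genes were called, a far larger share, so the recovery given for HFSC need not hold there.

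The Hedgehog genes, the pathway and cell type lists and the rule for named genes (all 9 genes; up to 8 other pathway genes called per tissue by size, Ccnd2 being added after its value was seen; the 5 genes most like Ptch1, Gli1 and Gli2; up to 3 leading genes per cell type list; Grk2 and Y-linked genes) were chosen with earlier results of these data known. Beyond this rule, list markers at 0, Rspo3 and the sort markers are named.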

Additional observations from a re-analysis of the deposited data

Results flagged for a closer look

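Among the 20 groups of 5 skin libraries tested for a sample far from the others, 5 stood out, and all 5 were values of control replicate 4. For the genes, the test used normalised values without a log. A rate by chance of about 1 group in 20 holds only for normally distributed and independent values. These values are skewed and the 5 come from 1 library, so that rate does not apply to them. In that library Shh was at 274 against 8.55 in the next control, Ptch1 was at 1617 against 654, and Gli3 was at 897 against 328. Hhip was at 155 against 33.3 and Mycn was at 582 against 69.4. The same library had the highest hair matrix and shaft mean of the 10, at 11.5 on the log2 scale; the part of hair growth in these values was not tested.

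For 2 of the 54 Hedgehog and other pathway genes tested in both tissues, the genotype effect differed between HFSC and skin, a share below the 5.62% of all 13227 genes called in this contrast: Cdon, with a difference of -1.59 on the log2 scale, and Gsk3b, with a difference of 0.82. Both were called under all 22 alternative settings of that contrast. Tissue, preparation and possibly age cannot be told apart in this contrast. All 4 Y-linked genes were lower in HFSC eKO, so a difference in sex make-up cannot be told apart from genotype there either.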

How the results depend on the processing

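No Hedgehog gene was called in skin or in the difference between tissues under any of the 17 and 22 alternatives run, and no called direction reversed. In HFSC, 3 to 5 of the 8 were called over the alternatives; Hhip and Gli1 moved across the threshold, as given in the report, and Ptch1, Gli2 and Mycn did not. HFSC libraries of the same replicate number gave no sign of pairing (correlations of deviations -0.060, -0.018 and -0.026). With 3 libraries per group this cannot exclude a shared litter, batch or day. With the replicate block in limma, 5 Hedgehog genes (Gli1 added, adjusted p = 0.0454), 8 other pathway genes and 2696 genes in all were called. Counts over all genes moved more. In skin, 62 genes were called in limma, 37 without the filter, 656 with DESeq2, 31 with edgeR scaled by library size, 154 with the hair list covariate, 0 without the 2 libraries low in Ddx3y, and 11 to 59 when 1 library was left out. In HFSC, 2673 were called, and 1540 to 2643 with 1 library left out (1540 and 1560 without control replicates 1 and 2). The difference between tissues called 743 genes (455 with a positive and 288 with a negative difference), 1275 with DESeq2, 351 and 346 in each direction with edgeR scaled by library size, and 452 (without HFSC control replicate 1) to 837 with 1 library left out. Other pathway genes called were 4 to 8 in HFSC with 1 library left out (4 without control replicate 1 or 2), 1 in skin with DESeq2 and 4 in the difference with DESeq2. The number of Hedgehog genes related to the hair list was 2 with a pseudocount of 5, 0 without the 2 farthest libraries, and 0 to 1 with 1 library left out. The cause of these changes was not tested, apart from the fewer libraries in each omission. Depth limits Shh in HFSC, at 10 reads or fewer per library, and Hhip there, at 0 to 96. It also limits Shh in most skin libraries, at 0 to 293 reads in controls and 2 to 93 in eKO.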

Other observations

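Other pathway genes were also high in skin control replicate 4; they were chosen after their values were seen. Scube3, which like Scube2 aids ligand release, was at 559 there and at 25.3 to 114 in the other 9 skin libraries, and its relative Scube1 was at 242 there and at 5.85 to 39.0 in the others.

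Several listed pathway genes had no read in any library of a tissue. Igf2, Sox2 and Nkx2-3 were at 0 in both tissues, and Ihh and Foxf2 were at 0 in HFSC. In skin, Tchh of the hair list and Fgf7 of the dermal papilla list were at 0 in every library as well. Whether a 0 reflects expression or the counting of that gene was not tested.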
